A study of Mus musculus with 13 samples.

Results

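Nanos1, Nanos2, Nanos3, Dazl, Boll, Pum2, Dnd1, Lin28a and Cpeb1 encode RNA-binding proteins of the germ line. They were chosen by name, and all 9 are listed among the 20662 gene symbols of the deposited tables. The study profiled RNA of germ cells from testes of C57BL/6 mice at postnatal week 8, after depletion of ribosomal RNA and with directional libraries. Gene values were analysed here for the 2 samples labelled as spermatogonia, the mitotic germ cells before meiosis. One is titled KIT_AGSC and the other THY1_AGSC, with 1 library each, called the KIT-titled and the THY1-titled library. The other 11 samples (5 of spermatocytes, 5 of spermatids and 1 of mature sperm) were not analysed here. Both spermatogonial samples share the strain, the age and the tissue, and the sources used here give neither the number of animals behind each nor how the cells were isolated. KIT is the receptor for stem cell factor and marks differentiating spermatogonia, while THY1 is a surface antigen used to enrich undifferentiated ones.

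These proteins control when a germ cell translates or destroys a messenger RNA. Nanos proteins recruit the CCR4-NOT deadenylase, which shortens the poly(A) tail, and act with sequence-specific partners such as Pumilio and Dnd1. Dazl and its relative Boll bind U-rich sites and promote translation, Cpeb1 governs cytoplasmic polyadenylation, and Lin28a blocks maturation of the let-7 microRNAs. In the testis, Nanos2 is known for keeping stem spermatogonia undifferentiated, and Dazl for licensing germ cells for differentiation and meiosis.

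The titles and the tables disagree, and this touches every direction given here. The KIT-titled sample has a value column headed Thy1, and the THY1-titled sample has one headed Kit. Kit itself was listed at 0 in the KIT-titled library, against 36.7 FPKM (fragments scaled to transcript length and to the library total) in the THY1-titled library. Thy1 was at 78.8 FPKM in the KIT-titled library and at 0.723 FPKM in the THY1-titled library. Titles were followed, and all directions would turn if they were exchanged. Depth is unknown. A low-end level of each library, percentile 5 of the values above 0 once each FPKM was scaled by transcript length (over genes with 1 annotated transcript, longer than 1000 bases), was in the KIT-titled library 6.41 times that in the THY1-titled library, and 6866 genes were listed at 0 in the KIT-titled library against 5006 in the THY1-titled library. Genes that nearly every cell uses, Ppia among them in both libraries, were also listed at 0, so 0 is given only as listed at 0. With no replicates, the differences below set 1 library against another, without a replicate check or a p-value. In such bulk libraries, fewer cells of a type and less RNA per cell cannot be told apart.

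The RNA-binding genes split into opposite directions. Nanos1, Nanos2, Nanos3 and Dnd1 were higher in the KIT-titled library, whose column is headed Thy1. Dazl, Boll and Pum2 were higher in the THY1-titled library, whose column is headed Kit. Cpeb1 was within 2-fold, and Lin28a was listed at 0 in both. Genes whose larger value reached 1 FPKM, 8 of the 9, were compared on the log2(FPKM + 1) scale, with a difference of 2-fold as the counting rule. Of these 8, 4 were at least 2-fold higher in the KIT-titled library, against 39.5% of the 15573 genes compared in all. The 3 that were at least 2-fold lower there stand against 41.1% of all genes. Differences of this size were thus the rule in these libraries (80.6% of genes), and a 2-fold difference is not particular to these genes. The size and the direction of each are described next.

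**Figure D1:**
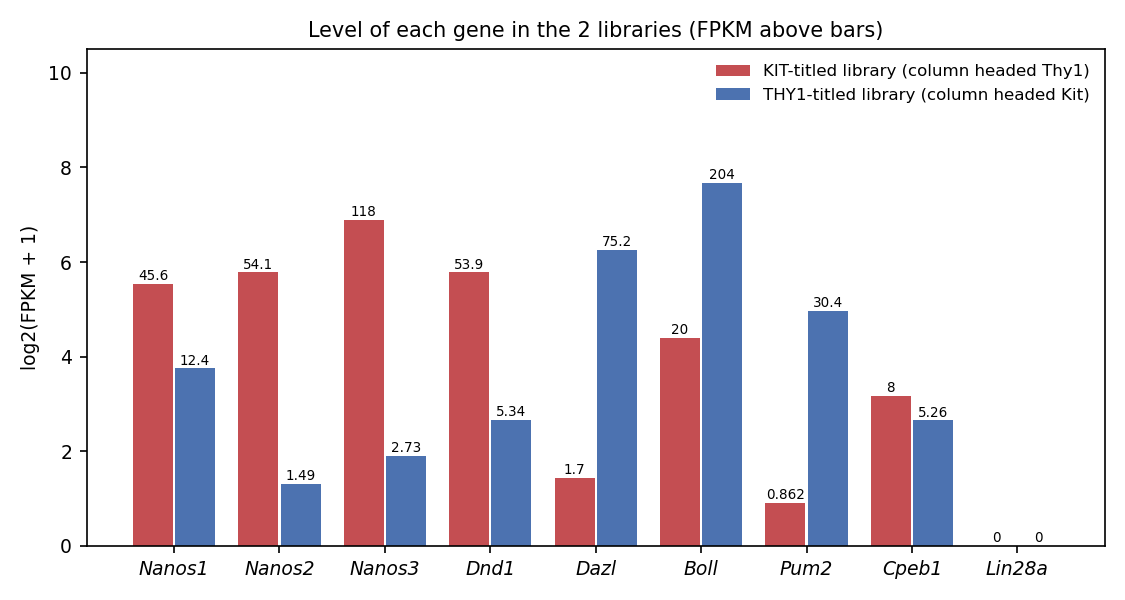
Levels of the 9 genes as log2(FPKM + 1), with the deposited FPKM printed above each bar, in the KIT-titled library (red, left) and the THY1-titled library (blue, right), 1 library each and therefore without error bars. The Nanos genes and Dnd1 have the taller red bar, Dazl, Boll and Pum2 the taller blue bar, and Lin28a has none.

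The Nanos family was higher in the KIT-titled library in all 3 of its genes, to very different extents. Nanos2, the translational repressor that maintains stem spermatogonia, was at 54.1 FPKM in the KIT-titled library and at 1.49 FPKM in the THY1-titled library, a ratio of 36.4. Nanos3, needed for survival of primordial germ cells and present in spermatogonial progenitors, was at 118 FPKM in the KIT-titled library and at 2.74 FPKM in the THY1-titled library, a ratio of 43.0. Nanos1, which mice can lack without losing fertility, was at 45.6 FPKM in the KIT-titled library and at 12.4 FPKM in the THY1-titled library, a ratio of 3.67. On the log2(FPKM + 1) scale the differences were 4.47 for Nanos2, 4.99 for Nanos3 and 1.80 for Nanos1. Among all genes counted, 0.539% had a larger difference toward the KIT-titled library than Nanos3 and 1.32% a larger one than Nanos2, while 26.95% exceeded Nanos1.

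The order within the family also changed between the libraries. Per length, Nanos3 was 2.17 times Nanos2 in the KIT-titled library and 1.84 times Nanos2 in the THY1-titled library, so this pair kept a similar proportion. Nanos2 was 1.19 times Nanos1 in the KIT-titled library and 0.12 times Nanos1 in the THY1-titled library. Nanos1 was therefore the lowest of the family in the KIT-titled library and the highest in the THY1-titled library. These ratios within a library do not depend on how the libraries are scaled against each other.

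The 250 bases upstream of the annotated starts are shown for the Nanos genes, which were higher in the KIT-titled library, and for Dazl, which ran the other way. They come from RefSeq on build GRCm38.p6, which is not the mm9 build named in the submitters' processing notes, and were matched by symbol. Each reads 5′ to 3′ on the gene's strand with CpG dinucleotides, the sites of DNA methylation, in capitals. Nanos2 lies at chr7:18987274-18987523 (plus strand), Nanos3 at chr8:84176553-84176802 (minus strand), Nanos1 at chr19:60755737-60755986 (plus strand) and Dazl at chr17:50293621-50293870 (minus strand).
Nanos2: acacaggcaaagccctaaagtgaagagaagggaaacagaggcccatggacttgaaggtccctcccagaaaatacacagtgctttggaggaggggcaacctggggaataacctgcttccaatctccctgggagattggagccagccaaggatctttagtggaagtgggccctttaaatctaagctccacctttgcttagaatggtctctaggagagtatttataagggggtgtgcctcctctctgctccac
Nanos3: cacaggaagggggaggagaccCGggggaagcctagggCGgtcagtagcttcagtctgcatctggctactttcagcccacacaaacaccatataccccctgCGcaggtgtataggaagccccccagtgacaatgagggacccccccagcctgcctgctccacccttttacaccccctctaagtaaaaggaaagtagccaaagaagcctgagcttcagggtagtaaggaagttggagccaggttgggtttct
Nanos1: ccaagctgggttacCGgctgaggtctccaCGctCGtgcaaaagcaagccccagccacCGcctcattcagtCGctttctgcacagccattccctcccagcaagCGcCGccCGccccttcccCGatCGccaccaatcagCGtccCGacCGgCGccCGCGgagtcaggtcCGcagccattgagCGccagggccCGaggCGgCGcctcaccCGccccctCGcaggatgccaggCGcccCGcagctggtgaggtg
Dazl: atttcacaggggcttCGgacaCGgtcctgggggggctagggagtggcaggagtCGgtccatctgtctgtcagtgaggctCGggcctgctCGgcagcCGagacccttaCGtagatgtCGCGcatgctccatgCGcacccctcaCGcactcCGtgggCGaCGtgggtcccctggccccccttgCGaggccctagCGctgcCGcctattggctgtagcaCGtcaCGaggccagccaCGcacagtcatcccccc
The Nanos2 window holds 0 CpG and the Nanos3 window 3, while the Nanos1 window holds 25 and the Dazl window 20. The median over the 32851 windows of the table is 6. Among the others, the 3 Pum2 windows hold 30, 34 and 36 CpG, the 2 Boll windows 33 and 11, the Cpeb1 window 25 and the Lin28a window 7. Of the genes higher in the KIT-titled library, Nanos2 and Nanos3 have few CpG and Nanos1 has many, and every window of the genes higher in the THY1-titled library, Dazl, Boll and Pum2, lies above the median. Of all windows, 29.03% have fewer CpG than Nanos3, 82.1% have fewer than Dazl and 89.3% have fewer than Nanos1.

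Dnd1, the partner that loads Nanos2 onto its target RNAs, ran with the Nanos genes. It was at 53.9 FPKM in the KIT-titled library and at 5.34 FPKM in the THY1-titled library, a ratio of 10.1 and a difference of 3.11 on the log2(FPKM + 1) scale. In the KIT-titled library, Nanos2 and Dnd1 were nearly equal per length (Nanos2 at 1.004 times Dnd1), and in the THY1-titled library Nanos2 was at 0.278 times Dnd1. Dnd1 overlaps Wdr55 on the opposite strand by 140 bases in GENCODE M21. Wdr55 had the opposite direction, with 4.48 FPKM in the KIT-titled library and 17.7 FPKM in the THY1-titled library. An annotated antisense transcript overlaps Nanos2 by 766 bases, and processed pseudogenes on the opposite strand overlap Boll by 396 bases and Cpeb1 by 777 bases. Nanos3 overlaps the microRNA genes Mir181c and Mir181d on its own strand. None of these 5 has a value here. Whether reads were assigned by strand is not given in the sources used here, so values of these overlapping genes are uncertain.

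**Figure D2:**
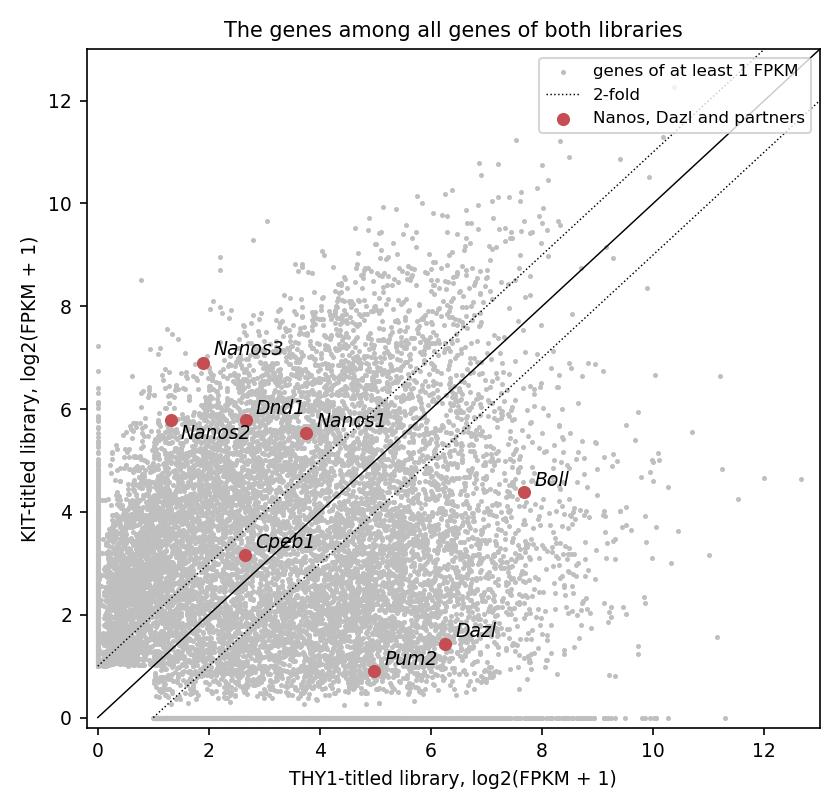
Each grey dot is a gene of at least 1 FPKM, with log2(FPKM + 1) in the THY1-titled library across and in the KIT-titled library upward, and 2 genes beyond the axes are not drawn. Red dots are the 8 genes with a value, the solid line marks equal levels and the dotted lines 2-fold. Nanos2, Nanos3 and Dnd1 lie in the upper left, Dazl, Pum2 and Boll lie below the lower dotted line, and Cpeb1 lies between the lines.

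The Daz family was higher in the THY1-titled library. Dazl, the germ-cell licensing factor, was at 1.70 FPKM in the KIT-titled library and at 75.2 FPKM in the THY1-titled library, a ratio of 44.2 toward the THY1-titled library. Boll, the family member required for the later steps of sperm formation, was at 19.96 FPKM in the KIT-titled library and at 204 FPKM in the THY1-titled library, a ratio of 10.2 toward the THY1-titled library. The differences, KIT-titled minus THY1-titled, were -4.82 for Dazl and -3.29 for Boll on the log2(FPKM + 1) scale. Boll had the highest level of the 9 genes in the THY1-titled library, where 98.2% of all listed genes were lower. It exceeded Dazl in both libraries, by 11.7 times in the KIT-titled library and by 2.71 times in the THY1-titled library. The Dazl value in the KIT-titled library was only 1.85 times the low-end level for its longest annotated transcript there (0.919 FPKM), so the size of its ratio rests on a value near the bottom of that library.

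Pum2, a Pumilio protein that binds RNA beside Nanos and Dazl, moved with the Daz family. It was at 0.862 FPKM in the KIT-titled library and at 30.4 FPKM in the THY1-titled library, a ratio of 35.3 toward the THY1-titled library and a difference of -4.08 on the log2(FPKM + 1) scale. Its value in the KIT-titled library was 1.99 times the low-end level for its length, again near the bottom. Its direction was opposite to that of the Nanos genes.

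Cpeb1, the cytoplasmic polyadenylation factor that meiotic germ cells need, hardly differed. It was at 8.00 FPKM in the KIT-titled library and at 5.26 FPKM in the THY1-titled library, a ratio of 1.52. Its paralogues were all higher in the THY1-titled library. Cpeb2 was at 3.38 FPKM in the KIT-titled library and 20.5 FPKM in the THY1-titled library, and Cpeb3 at 1.03 FPKM in the KIT-titled library and 9.81 FPKM in the THY1-titled library. Cpeb4 had the highest level of the 4 in both, at 11.9 FPKM in the KIT-titled library and 45.4 FPKM in the THY1-titled library. Lin28a, which marks undifferentiated spermatogonia in the mouse testis, was listed at 0 in both libraries. Its paralogue Lin28b was listed at 0 in the KIT-titled library and stood at 1.12 FPKM in the THY1-titled library. With housekeeping genes listed at 0 as well, these zeros show no more than that no level was given.

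The order of levels was nearly turned round between the libraries. In the KIT-titled library it ran Nanos3, Nanos2, Dnd1, Nanos1, Boll, Cpeb1, Dazl and Pum2. In the THY1-titled library it ran Boll, Dazl, Pum2, Nanos1, Dnd1, Cpeb1, Nanos3 and Nanos2. Neighbours such as Nanos2 and Dnd1 in the KIT-titled library (54.1 and 53.9 FPKM), or Dnd1 and Cpeb1 in the THY1-titled library (5.34 and 5.26 FPKM), cannot be ordered without replicates. Nanos2 was 31.8 times Dazl in the KIT-titled library, while in the THY1-titled library Dazl was 50.6 times Nanos2. Nanos3 was 5.89 times Boll in the KIT-titled library, while in the THY1-titled library Boll was 74.4 times Nanos3.

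The direction of these genes ran with the number of their exons, and so did that of protein-coding genes at large. Exon numbers are those of the longest GENCODE M21 transcript in bases, which need not have the most exons of its gene. Cnot4 and Vim, for example, count as 1 exon by this rule, so the classes below sort longest transcripts. The genes higher in the KIT-titled library have few exons, 1 in Nanos1, 1 in Nanos2, 2 in Nanos3 and 3 in Dnd1. Those higher in the THY1-titled library have many, 10 in Boll, 11 in Dazl and 21 in Pum2. Cpeb1 has 12. Among 806 protein-coding genes with 1 exon in that transcript, 64.1% were at least 2-fold higher in the KIT-titled library and 21.6% were at least 2-fold lower. With 2 exons the shares were 67.7% higher and 19.9% lower among 1040 genes, and with 3 to 5 exons 50.5% higher and 30.6% lower among 3031 genes. They were 34.2% higher and 44.1% lower among 3590 genes of 6 to 10 exons, and 23.6% higher and 55.7% lower among 4934 genes of 11 or more. The median difference turned from positive to negative at 6 exons, with 1.79 for 1 exon, 1.99 for 2, 1.03 for 3 to 5, -0.46 for 6 to 10 and -1.42 for 11 or more, on the log2(FPKM + 1) scale. Over genes above 0 in both libraries these medians were 1.84, 2.03, 1.24, 0.10 and -0.997.

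**Figure D3:**
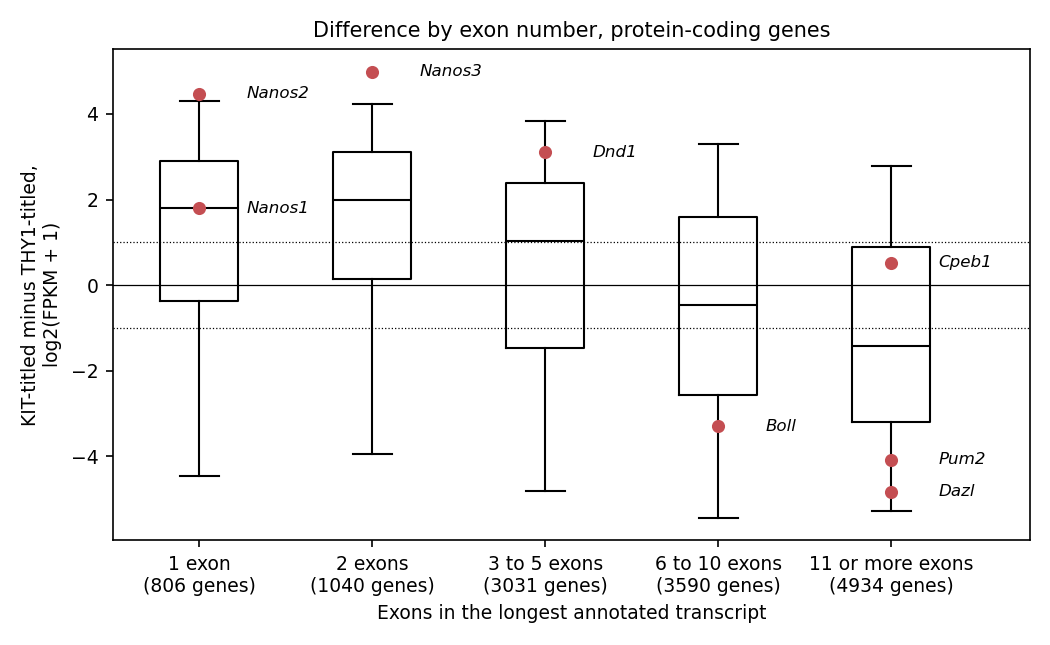
Difference between the libraries, KIT-titled minus THY1-titled on the log2(FPKM + 1) scale, for protein-coding genes grouped by exons in the longest transcript. Boxes span the middle 50% with the median as a line, whiskers run to percentiles 5 and 95, dotted lines mark 2-fold, and red dots are the named genes. Nanos1 lies at its group's median, Nanos2 and Nanos3 lie above the whisker, and Dazl, Pum2 and Boll lie below the box.

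Set against genes of like exon number in the longest transcript, these genes differed in how far they stood out. Nanos1 lay at the middle of its class, with 50.1% of 1-exon genes below its difference of 1.80. Nanos2 exceeded 95.9% of 1-exon genes, and Nanos3 exceeded 98.4% of 2-exon genes. Dnd1 exceeded 87.0% of genes of 3 to 5 exons. Of genes of 6 to 10 exons, 17.7% lay further toward the THY1-titled library than Boll. Of genes of 11 or more exons, 8.45% lay further that way than Dazl and 14.7% further than Pum2, whereas Cpeb1 exceeded 71.1% of that class. The part of exon number in these differences was not tested.

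Other genes of the same machinery were at least 2-fold higher in the THY1-titled library in 53.3% to 76.5% of cases by list, against 41.1% of all genes and 55.7% of protein-coding genes of 11 or more exons. The 53.3% is that of the CCR4-NOT list, whose median is 5.5 exons. Genes of 3 to 5 exons had 30.6% higher in the THY1-titled library, and those of 6 to 10 exons 44.1%. The medians given next are KIT-titled minus THY1-titled on the log2(FPKM + 1) scale, where that of all 15573 genes was 0.00. Of 15 genes of the CCR4-NOT deadenylase and its Tob and Btg cofactors, 5 were at least 2-fold higher in the KIT-titled library and 8 in the THY1-titled library, with a median of -1.52. Cnot1, the scaffold that Nanos proteins bind, was at 6.19 FPKM in the KIT-titled library and 105 FPKM in the THY1-titled library. Cnot4 was at 0.619 FPKM in the KIT-titled library and 42.6 FPKM in the THY1-titled library, and Cnot10 at 0.935 FPKM in the KIT-titled library and 36.0 FPKM in the THY1-titled library. Cnot2, which had the highest mean of the list, ran the other way at 117 FPKM in the KIT-titled library and 37.4 FPKM in the THY1-titled library.

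Decapping and decay genes gave 3 higher in the KIT-titled library and 13 in the THY1-titled library of 17, with a median of -2.03. The decapping scaffold Edc4 was at 0.781 FPKM in the KIT-titled library and 40.7 FPKM in the THY1-titled library. Patl1, which links deadenylation to decapping, was at 0.716 FPKM in the KIT-titled library and 27.5 FPKM in the THY1-titled library. The deadenylase Parn was listed at 0 in the KIT-titled library and stood at 32.8 FPKM in the THY1-titled library, whereas the scavenger decapping enzyme Dcps was at 396 FPKM in the KIT-titled library and 26.6 FPKM in the THY1-titled library. Cytoplasmic polyadenylation and cap-binding genes, the Cpeb1 paralogues included, gave 2 higher in the KIT-titled library and 13 in the THY1-titled library of 20, with a median of -2.03. The cap-binding Eif4e was listed at 0 in the KIT-titled library and stood at 53.9 FPKM in the THY1-titled library. Its relative Eif4e2 was at 4.23 FPKM in the KIT-titled library and 140 FPKM in the THY1-titled library, and the scaffold Eif4g3 at 4.16 FPKM in the KIT-titled library and 93.8 FPKM in the THY1-titled library. Paip2, an inhibitor of poly(A)-binding protein, had the highest mean, with 40.7 FPKM in the KIT-titled library and 423 FPKM in the THY1-titled library.

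Relatives and cofactors of Pumilio, Daz and Lin28 gave 2 higher in the KIT-titled library and 9 in the THY1-titled library of 15, with a median of -1.18. That is 60.0% higher in the THY1-titled library, near the 55.7% of genes of 11 or more exons. Dzip3, named for its interaction with DAZ, was at 0.378 FPKM in the KIT-titled library and 57.2 FPKM in the THY1-titled library. Drosha, the microRNA-processing nuclease (listed as Rnasen), was listed at 0 in the KIT-titled library and stood at 34.3 FPKM in the THY1-titled library. Snapin, which had the highest mean, was within 2-fold at 161 FPKM in the KIT-titled library and 87.4 FPKM in the THY1-titled library. The median number of exons in the longest transcript was 5.5 in the CCR4-NOT list, 14 in the decay list and 11 in the polyadenylation list. It was 11 among the relatives, against 8 over all genes with a known exon number.

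**Figure D4:**
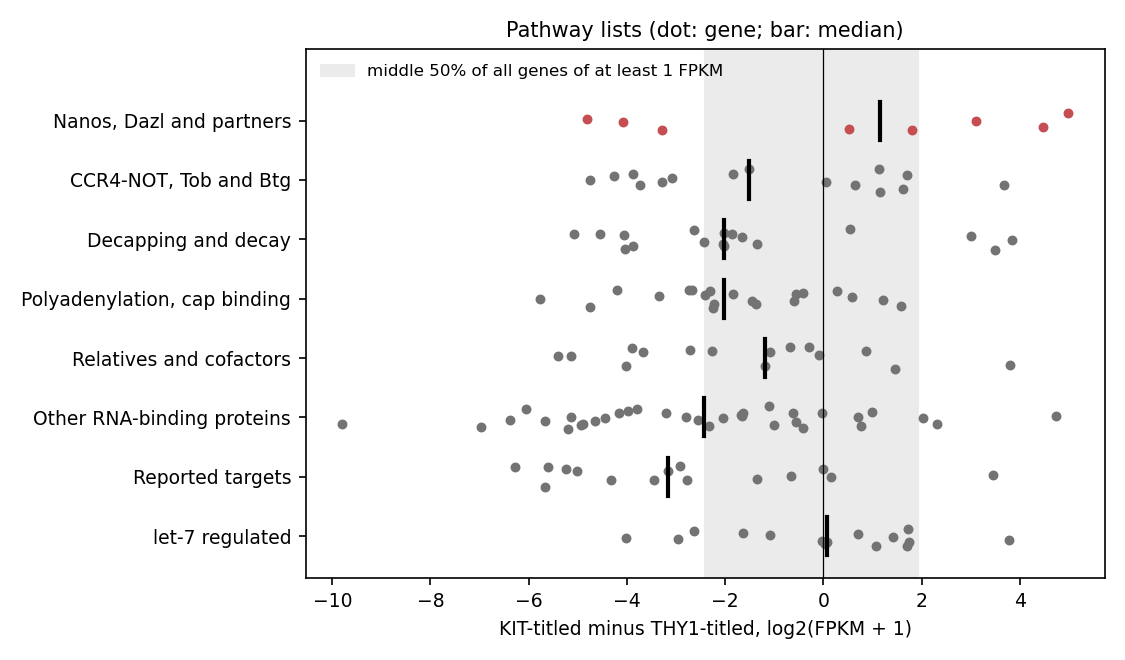
Difference of each gene, KIT-titled minus THY1-titled on the log2(FPKM + 1) scale, for the named genes (red) and 7 lists of related genes (grey), with the list median as a black bar and the middle 50% of all genes shaded. Medians of all lists but the named genes and the let-7 list lie at -1.18 or below.

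Transcripts that earlier work in mice or human cells reported as targets of Nanos2, Dnd1 or Dazl were then listed. Without Nanos3 and Dazl themselves, 1 of 15 was at least 2-fold higher in the KIT-titled library and 11 in the THY1-titled library, with a median of -3.17. These 11 are 73.3% of the 15, against 41.1% of all genes. Kit, whose levels are given above, is 1 of the 11. Kit, Stra8, Sohlh1, Sohlh2, Sycp1 and Sycp3 also stand in the lists of differentiating spermatogonia or spermatocyte markers below, so those lists are not separate results. The list has a median of 11 exons, and protein-coding genes of 11 or more exons had 55.7% higher in the THY1-titled library and a median of -1.42. Among those tied to Nanos2 repression, Stra8, which germ cells need to enter meiosis, stood at 0.743 FPKM in the KIT-titled library and 34.1 FPKM in the THY1-titled library. Taf7l, a germ-cell TFIID subunit, was listed at 0 in the KIT-titled library and stood at 76.8 FPKM in the THY1-titled library. The synaptonemal complex gene Sycp3, which Dazl is also known to promote, was at 111 FPKM in the KIT-titled library and 286 FPKM in the THY1-titled library. Ddit4, an inhibitor of mTORC1, was listed at 0 in the KIT-titled library and stood at 9.95 FPKM in the THY1-titled library, and Sohlh2, a differentiation factor, was listed at 0 in the KIT-titled library and stood at 5.86 FPKM in the THY1-titled library. Its partner Sohlh1 was within 2-fold at 6.93 FPKM in the KIT-titled library and 6.12 FPKM in the THY1-titled library.

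Of the transcripts tied to Dazl, the helicase gene Ddx4 was at 1.77 FPKM in the KIT-titled library and 140 FPKM in the THY1-titled library. Sycp1, of the synaptonemal complex, was at 1.48 FPKM in the KIT-titled library and 79.8 FPKM in the THY1-titled library. The meiotic gene Tex11 was listed at 0 in the KIT-titled library and stood at 47.5 FPKM in the THY1-titled library. Tex14, of intercellular bridges, was within 2-fold at 13.4 FPKM in the KIT-titled library and 21.6 FPKM in the THY1-titled library. Tex19.1 was listed at 0 in the KIT-titled library and stood at 0.417 FPKM in the THY1-titled library, below the minimum for counting. The ribosomal protein gene Rpl10l was the 1 that was higher in the KIT-titled library, at 14.1 FPKM in the KIT-titled library and 0.386 FPKM in the THY1-titled library. Of those tied to Dnd1, the cell cycle inhibitor Cdkn1b was listed at 0 in the KIT-titled library and stood at 6.52 FPKM in the THY1-titled library. The histone methyltransferase Ezh2 was at 4.81 FPKM in the KIT-titled library and 51.3 FPKM in the THY1-titled library, and the kinase gene Lats2 was within 2-fold at 9.23 FPKM in the KIT-titled library and 9.203 FPKM in the THY1-titled library. Of the 16 listed, 7 were at 0 in the KIT-titled library and 0 in the THY1-titled library. Over the 9 of the 15 that were above 0 in both libraries the median was -1.36, where that of all genes so chosen was 0.42.

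Markers of other stages and cell types moved between the libraries as well. Undifferentiated spermatogonia had 11 counted markers other than the members, of which 6 were at least 2-fold higher in the KIT-titled library and 4 in the THY1-titled library, with levels summed over 19 genes of 333 FPKM in the KIT-titled library and 133 FPKM in the THY1-titled library. Egr4 alone, at 217 FPKM in the KIT-titled library and 4.11 FPKM in the THY1-titled library, decides this order, and without it the sums were 116 FPKM in the KIT-titled library and 128 FPKM in the THY1-titled library. Besides Egr4, the markers at least 2-fold higher in the KIT-titled library were Gfra1, Id4, Bcl6b, Lhx1 and Shisa6. Gfra1 was at 3.91 FPKM there and at 0.102 FPKM in the THY1-titled library. Those at least 2-fold higher in the THY1-titled library were Uchl1, Etv5, Epha2 and Pvr. Uchl1 was at 49.5 FPKM there and at 3.26 FPKM in the KIT-titled library. The defining genes Zbtb16, Eomes and Neurog3 were listed at 0 in both libraries. Differentiating spermatogonia had 11 markers, of which 0 were at least 2-fold higher in the KIT-titled library and 8 in the THY1-titled library, with sums of 43.4 FPKM in the KIT-titled library and 199.8 FPKM in the THY1-titled library. Of 19 spermatocyte markers, 1 was higher in the KIT-titled library and 17 in the THY1-titled library, and the sums were 897 FPKM in the KIT-titled library and 9355 FPKM in the THY1-titled library. Dmc1, Hormad1, Adam2 and Tex101 were at 0 in the KIT-titled library. Of 17 spermatid markers, 9 were higher in the KIT-titled library and 8 in the THY1-titled library, with sums of 5477 FPKM in the KIT-titled library and 3104 FPKM in the THY1-titled library. Acr, Spaca1 and Crem were at 0 in the KIT-titled library. Of 8 Leydig cell markers, 0 were higher in the KIT-titled library and 7 in the THY1-titled library, with sums of 189 FPKM in the KIT-titled library and 12931 FPKM in the THY1-titled library, and Hsd3b6 and Hsd17b3 were at 0 in the KIT-titled library. Protein-coding genes of 11 or more exons had 55.7% higher in the THY1-titled library, those of 6 to 10 exons had 44.1%, and those of 2 exons had 67.7% higher in the KIT-titled library. The median number of exons was 8 for differentiating, 11 for spermatocyte, 2 for spermatid and 6 for Leydig markers. Markers of differentiating spermatogonia, spermatocytes and Leydig cells thus mostly moved the same way as Dazl, Boll and Pum2. Their part in those differences was not tested.

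Other somatic lists were smaller in sum or mixed in direction. Sertoli markers summed to 55.5 FPKM in the KIT-titled library and 1281 FPKM in the THY1-titled library, with 4 of 9 counted genes higher in each and Gata1, Fshr, Vim, Inha and Aard at 0 in the KIT-titled library. Peritubular and stromal markers summed to 238 FPKM in the KIT-titled library and 1531 FPKM in the THY1-titled library, with 4 of 10 higher in the KIT-titled library and 6 in the THY1-titled library, and Des was at 0 in both. Macrophage markers summed to 288 FPKM in the KIT-titled library and 970 FPKM in the THY1-titled library, yet 7 of 12 were higher in the KIT-titled library and 3 in the THY1-titled library, and without Aif1 the sums were 263 FPKM in the KIT-titled library and 89.1 FPKM in the THY1-titled library. T lymphocyte markers, of cells that carry THY1, summed to 51.8 FPKM in the KIT-titled library and 14.7 FPKM in the THY1-titled library, with Cd3g and Cd2 at 0 in both. Endothelial markers summed to 65.0 FPKM in the KIT-titled library and 12.1 FPKM in the THY1-titled library, and 3 erythroid markers to 69.1 FPKM in the KIT-titled library and 12.6 FPKM in the THY1-titled library. Of 6 counted T lymphocyte markers, 4 were higher in the KIT-titled library and 1 in the THY1-titled library. Of 5 endothelial markers 2 were higher in each, and of 3 erythroid markers 2 were higher in the KIT-titled library and 0 in the THY1-titled library. Over all genes the shares were 39.5% and 41.1%. The macrophage, T lymphocyte and erythroid lists thus had more genes higher in the KIT-titled library, the direction of the Nanos genes. So had the undifferentiated list without the members (54.55% higher in the KIT-titled library and 36.36% in the THY1-titled library). Spermatid markers leaned the same way (52.94% higher in the KIT-titled library and 47.06% in the THY1-titled library). The part of these lists was not tested either.

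The genes whose pair of levels was most like those of Nanos2, Nanos3 and Dazl were also named, by Euclidean distance over the 2 values of log2(FPKM + 1). Predicted genes, RIKEN clones, small RNAs, pseudogenes and similar symbols were left out of the search and of the counts. Nearest to Nanos2 were Nol3 (53.2 FPKM in the KIT-titled library and 1.61 FPKM in the THY1-titled library), Olfr1495 and Teddm1, and 20 genes lay within 0.25. Nearest to Nanos3 were Tmem170 (111 FPKM in the KIT-titled library and 2.98 FPKM in the THY1-titled library), Sh3tc2 and Pcbd1, with 6 genes within 0.25. Nearest to Dazl were Fnta (1.69 FPKM in the KIT-titled library and 71.6 FPKM in the THY1-titled library), Noc4l and Bub1, with 31 genes within 0.25. With 2 values per gene, such likeness describes position among the genes searched and no more.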

How the data were processed

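RNA of 2 spermatogonial samples, 1 library each, was analysed. The deposited tables hold 1 decimal value per gene symbol with no unit in the header. They were taken as FPKM made by the authors, because their sums differ (1518739 in the KIT-titled library and 804044 in the THY1-titled library) and Cufflinks 2.1.1 is named in the submitters' processing notes, which also name TopHat 1.4.1, CASAVA and mm9 without roles. The sources used here do not give the annotation, the filters or the handling of reads with several alignments. FPKM is relative to a total that includes Rpph1, a noncoding RNA with 71.8% of the sum in the KIT-titled library and 37.9% in the THY1-titled library.

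Tables follow the sample recorded for them, and groups follow the sample titles. Differences are KIT-titled minus THY1-titled on the log2(FPKM + 1) scale, which understates changes of low genes, and a gene was counted if it reached 1 FPKM in either library. No test was possible with 1 library a group. The code of the counting rule was checked only on planted fold changes without noise. Transcript lengths, exon numbers and overlaps came from GENCODE M21 (GRCm38), matched by symbol for 18395 genes (89.0%). The low end of each library was FPKM times length at percentile 5 of values above 0, among genes with 1 transcript over 1000 bases. It came to 2735 in the KIT-titled library and 427 in the THY1-titled library, and intervals that need counts were not given. RefSeq promoters were found for 8 members.

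The members and the lists were chosen with earlier results of these data known. Named were all members, their Lin28 and Cpeb paralogues, all reported targets, and per list up to 3 genes with the largest difference among those of at least 5 FPKM and the 1 with the highest mean. One gene that the rule names is not reported here. For Nanos2, Nanos3 and Dazl the 3 nearest genes by level were named. Overlapping genes, the exon grouping and the sums without the top gene were added after the values were seen. Alternatives were a pseudocount of 0.1, 3 scalings of the libraries, no minimum or one of 5 or 30 FPKM, and genes above 0 in both. Python 3.11.15, numpy 2.4.6, pandas 2.3.3 and matplotlib 3.10.9 were used.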

Additional observations from a re-analysis of the deposited data

How the results depend on the processing

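No paired analysis was possible because each group compared has 1 library. The differences of Nanos1, Nanos2, Nanos3, Dnd1, Dazl, Boll and Pum2 kept their direction and stayed past 2-fold with a pseudocount of 0.1 and under the 3 scalings (a median ratio of 1, the same upper quartile, the same sum without Rpph1), which shift the log2 ratio of all genes by -0.56, 0.27 and 0.22. They ranged over 1.25 to 2.06 for Nanos1, 3.92 to 5.09 for Nanos2, 4.43 to 5.38 for Nanos3, 2.56 to 3.38 for Dnd1, -5.38 to -4.64 for Dazl, -3.82 to -3.03 for Boll and -4.99 to -3.95 for Pum2. Cpeb1 stayed within 2-fold, at 0.04 to 0.77. The counts of 4 members higher in the KIT-titled library and 3 in the THY1-titled library were the same under every alternative run. Within 2-fold there were 2 members with no minimum, which admits Lin28a, and 0 with a minimum of 30 FPKM, which removes Cpeb1. Over all genes, those within 2-fold numbered 8107 with no minimum, 1907 with a minimum of 5 FPKM and 643 with a minimum of 30 FPKM. With that last minimum 2175 genes were higher in the KIT-titled library and 2815 in the THY1-titled library, and with genes above 0 in both, 5109 (41.5%) were higher in the KIT-titled library and 4175 (33.9%) in the THY1-titled library, which turns the balance of 39.5% and 41.1%. These alternatives test fewer or more genes by construction. With the median ratio set to 1, 33.3% of genes were higher in the KIT-titled library and 46.2% in the THY1-titled library. That scaling did not turn the balance, while the same upper quartile and the same sum without Rpph1 did. These shares were 42.4% and 39% with the same upper quartile, and 41.8% and 39.3% with the same sum without Rpph1. Depth is unknown, and Dazl and Pum2 lie near the low end of the KIT-titled library.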

Other observations

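Other RNA-binding proteins of germ cells were mostly higher in the THY1-titled library. Of 34 counted, 4 were at least 2-fold higher in the KIT-titled library and 24 in the THY1-titled library, with a median of -2.44 on the log2(FPKM + 1) scale. Of these, 8 were listed at 0 in the KIT-titled library, and over the 26 above 0 in both the median was -1.65. Mael, of the piRNA pathway, was listed at 0 in the KIT-titled library and stood at 889 FPKM in the THY1-titled library. The helicase gene Ddx25 (126 FPKM) and Khdrbs3 (82.2 FPKM in the THY1-titled library) were also listed at 0 in the KIT-titled library. The 24 are 70.6% of the list, against 41.1% of all genes and 55.7% of protein-coding genes of 11 or more exons, and the list's median number of exons was 12. Ddx4 is also among the reported targets, and Igf2bp1, Igf2bp2 and Igf2bp3 are also in the let-7 list below. Lin28b is in the let-7 list and among the relatives above, so these lists are not wholly separate results.

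Transcripts known to be regulated by let-7, the microRNA family that Lin28a holds back, were mixed. Of 15 counted, 6 were at least 2-fold higher in the KIT-titled library and 5 in the THY1-titled library, with a median of 0.08. These are 40.0% and 33.3%, against 39.5% and 41.1% of all genes, so the list stood near genes at large. The cyclin gene Ccnd1 was at 83.6 FPKM in the KIT-titled library and 5.18 FPKM in the THY1-titled library. Nras ran the other way, at 1.12 FPKM in the KIT-titled library and 33.4 FPKM in the THY1-titled library, and Hras1 was listed at 0 in the KIT-titled library and stood at 6.85 FPKM in the THY1-titled library. Igf2bp3, with the highest mean, was within 2-fold at 60.2 FPKM in the KIT-titled library and 36.4 FPKM in the THY1-titled library. MicroRNAs were not analysed here.

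Letters of common promoter motifs were counted on both strands in the 250-base windows. TATAAA was found in the Nanos2 and Cpeb1 windows and in 12.4% of all windows. CCAAT was found 2 times in the Nanos2 window, in the Nanos1 and Dazl windows and in 1 of the Boll windows, and in 33.8% of all windows. CACGTG was found in 1 of the Boll windows and in 6.02% of all windows, and TCCCGC in 2 of the 3 Pum2 windows and in 16.9% of all windows.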
